A study of Mus musculus with 36 samples.

Results

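The genes described here are Ly6a, Anxa1, Anxa3, Clu, Areg, Ereg, Msln and Krt7, which were taken by name as markers of the fetal-like state of regenerating intestinal epithelium. The rule uses no measured value, but the names were chosen with earlier results of these data known. They are 8 of the 52636 genes in the count tables of 30 mouse E18.5 intestine libraries, and all 8 passed the filter on low counts in both sets of libraries. RNA-seq was done on whole intestine of untreated C57BL/6N embryos, with 3 biological replicates in each of 10 genotype groups. The D387A set has 6 groups. Its control is Mlkl-/-. A second group carries the Casp8 D387A knock-in alone and keeps intact Mlkl, so it differs from the control at both genes. The third group is D387A Cflar-/- Mlkl-/-, and the remaining groups are this genotype with Casp1-/-, with Casp1-/- Ifnar1-/- or with Casp1-/- Fadd-/- added. The C362A set has an Mlkl-/- control of its own, C362A Mlkl-/-, C362A Mlkl-/- Casp1-/- and C362A Cflar-/- Mlkl-/-. D387A removes a caspase-8 self-cleavage site, and C362A replaces the catalytic cysteine. Cflar encodes cFLIP, the catalytically dead partner of caspase-8, Mlkl encodes the executor of necroptosis, Casp1 encodes the inflammatory caspase of inflammasomes, Ifnar1 encodes a chain of the type I interferon receptor, and Fadd encodes the adaptor that recruits caspase-8. All alleles are carried in the germline, so every cell of the intestine is mutant, and the Cflar and Mlkl deletions of the D387A line and the Cflar deletion of the C362A line were made with Cas9 and bred as lines. The number at the start of the sample titles is shared by the Mlkl-/- and D387A Cflar-/- Mlkl-/- embryos and differs for each of the other D387A groups. What this number marks is not given in the sources used here, so it and the genotype cannot be told apart in comparisons between groups with different numbers.

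After injury, intestinal epithelium can leave its adult program, lose its usual stem cell genes for a time, and switch on genes of the fetal intestine while the lining is rebuilt. This fetal-like or revival state is known from infection, irradiation, colitis and organoid culture, and the Hippo pathway coactivator YAP, interferon and EGF receptor signals are each known to take part in it. Its common markers include the surface protein Sca-1 (Ly6a), the secreted chaperone clusterin (Clu), the annexins Anxa1 and Anxa3, the EGF receptor ligands amphiregulin (Areg) and epiregulin (Ereg), the surface glycoprotein mesothelin (Msln) and the simple-epithelial keratin Krt7.

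The intestine libraries held 17943524 to 31052238 reads assigned to genes. Each library that should lack Casp1 had at most 0.212 CPM (counts scaled to library size) of Casp1 against at least 42.6 CPM elsewhere, Fadd was at 0.659 to 1.01 CPM in the Fadd-/- embryos against at least 25.5 CPM elsewhere, and Ifnar1 was at 33.2 to 37.9 CPM in the Ifnar1-/- embryos against at least 76.1 CPM elsewhere. Reads over the whole of Cflar and Mlkl do not show their loss: Cflar was at 33.8 to 59.4 CPM in the Cflar-/- groups against 43.9 to 72.5 CPM in the others, and Mlkl at 2.13 to 62.6 CPM in the Mlkl-/- groups against 10.9 to 13.9 CPM in D387A alone. A count over a whole gene does not check an allele that removes a part of it, so these genotypes are as labelled. A pair of libraries touch results given here. The third D387A Cflar-/- Mlkl-/- Casp1-/- embryo lay farther from the mean of the other 2 in its group than any other library did. Its root mean square deviation was 0.564 log2 CPM over tested genes, and the third C362A Cflar-/- Mlkl-/- embryo came next at 0.549. The third Mlkl-/- embryo of the D387A set had a summed level of 11 stomach genes of 297.2 RPKM against 1.56 and 1.26 RPKM in the other 2 controls. Intestinal epithelium markers were present in every group: 10 epithelial genes summed to 2306 to 2620 RPKM in the D387A set's controls and to 2952 to 3259 RPKM in D387A Cflar-/- Mlkl-/-. Levels are given as RPKM, reads scaled for the deposited gene length and for library sizes that were normalised within each set, so levels are not compared between the sets. A difference between groups is a log2 change with its standard error (SE) from edgeR's quasi-likelihood test, with p adjusted by Benjamini-Hochberg over all genes tested. A gene was called where the log2 change was beyond 1 in size and the adjusted p under 0.05. In whole tissue, fewer cells of a type and less RNA per cell cannot be told apart.

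Against Mlkl-/-, 5 of the 8 genes were called as higher in D387A Cflar-/- Mlkl-/- intestine: Ly6a, Areg, Ereg, Anxa1 and Anxa3. None was called as lower. Of 18360 genes tested in the D387A set, 22.2% were called in this comparison and 9.4% were called as higher, and the median log2 change was 1.44 over the 8 genes against -0.01 over all genes. Values of the groups did not overlap for 7 of the 8 genes, against 68.1% of all genes. D387A alone gave 0 calls among the 8 genes, against 0.00545% of all genes (1 gene), and log2 changes of the 8 genes from -0.85 to 0.16. With D387A alone 1 of the 8, Clu, had an unadjusted p under 0.05, its groups overlapped (log2 change -0.85, and 0.12 without the third control), and neither DESeq2 nor limma-voom called any of the 8 (0 each). In the C362A set the same 5 genes were called as higher in C362A Mlkl-/- than in Mlkl-/- (18% of 19408 genes called, 10.4% as higher), with a median log2 change of 1.44 against 0.02 over all genes. In C362A Cflar-/- Mlkl-/- 7 of the 8 were called as higher, all but Krt7 (24.6% of genes called, 13.4% as higher). Values did not overlap for 7 of the 8 genes in C362A Mlkl-/- (53.6% of all genes) and for 7 of the 8 in C362A Cflar-/- Mlkl-/- (55% of all genes). The comparisons within a set share their control embryos, so their values are given side by side and not as separate support.

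**Figure D1:**
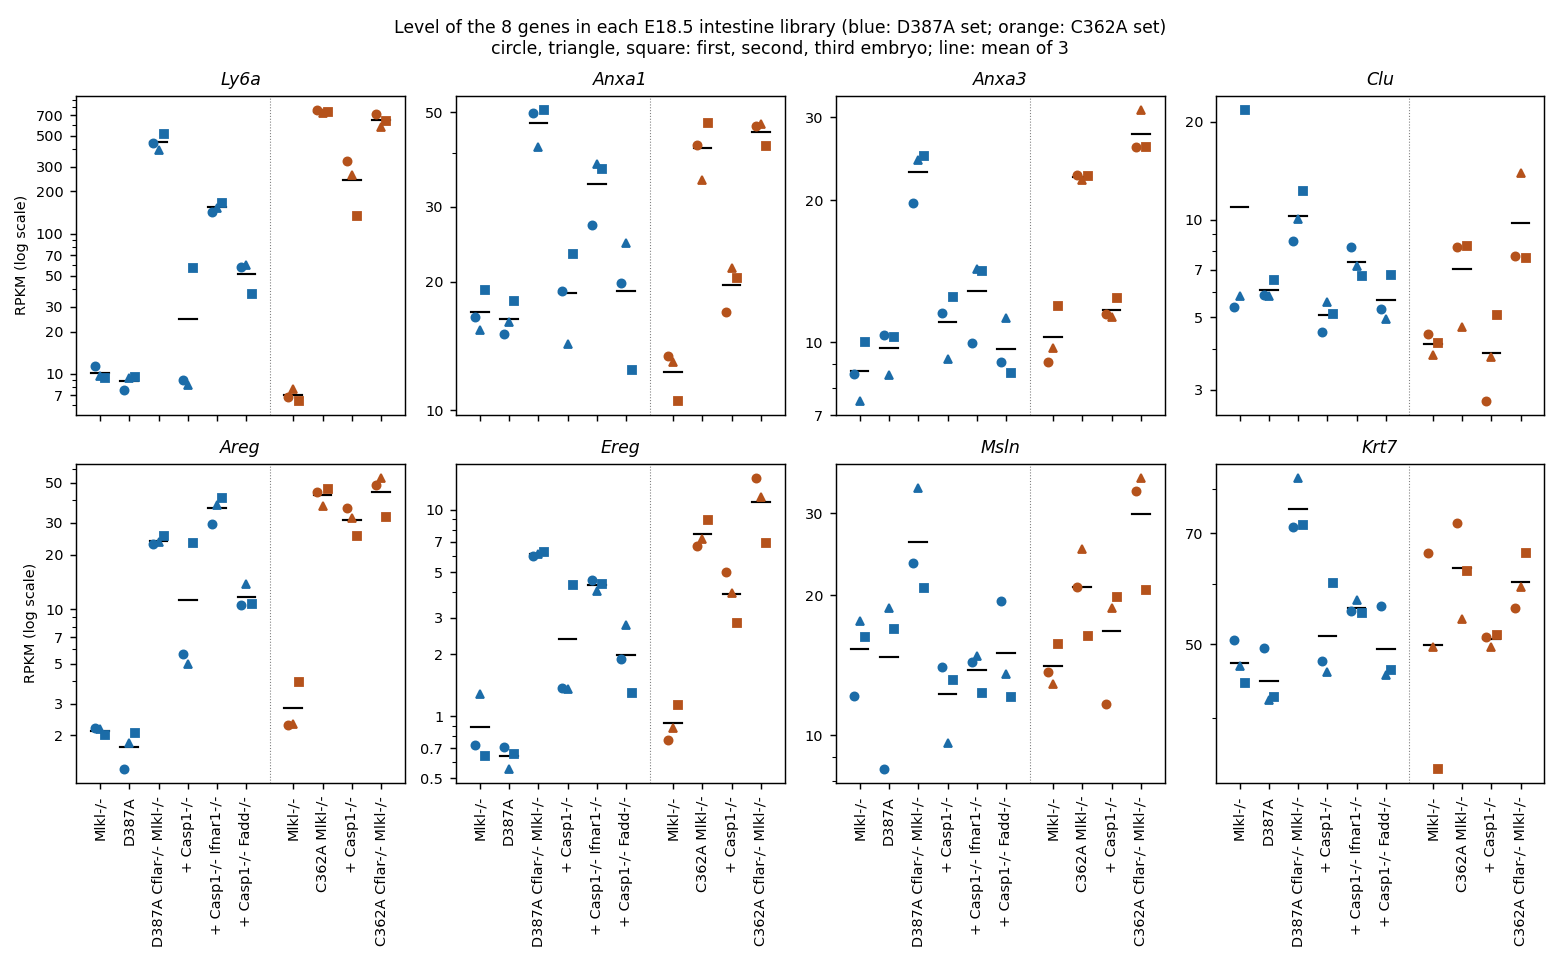
Level of each of the 8 genes (RPKM, log scale) in every E18.5 intestine library, by genotype group. Circles mark the first embryo of a group, triangles the second and squares the third, and lines are means of 3 (blue, D387A set; orange, C362A set). Ly6a spans 7.69 to 517 RPKM in the D387A set, and the third Casp1-/- embryo (56.9 RPKM) sits apart from the other 2 of its group (9.06 and 8.33 RPKM).

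The EGF receptor ligands Areg and Ereg, which are neighbours on chromosome 5, were among the genes with the largest changes of the 8. Areg (ENSMUSG00000029378, GRCm38 chr5:91139599-91148432, plus strand) encodes amphiregulin, a membrane-anchored ligand that is shed to act on EGF receptor. It stood at 2.20, 2.16 and 2.02 RPKM in the D387A set's Mlkl-/- embryos and at 1.31, 1.82 and 2.08 RPKM in D387A alone. In D387A Cflar-/- Mlkl-/- it stood at 23.0, 23.6 and 25.3 RPKM. Every embryo of that genotype lay above every control, and D387A alone overlapped the control. The log2 change from Mlkl-/- was 3.49 ± 0.441 in D387A Cflar-/- Mlkl-/- (adjusted p = 2.74e-06), an 11.3-fold rise. The C362A controls held 2.27, 2.32 and 3.95 RPKM, C362A Mlkl-/- 44.7, 37.0 and 46.3 RPKM, and C362A Cflar-/- Mlkl-/- 48.4, 53.1 and 32.2 RPKM. Both C362A groups lay wholly above their controls and overlapped each other, with log2 changes of 3.92 ± 0.243 (adjusted p = 1.74e-08) and 3.98 ± 0.244 (adjusted p = 1.34e-08).

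The 300 bases around the Areg start site are shown because Areg was called as higher than the control in every comparison with the control but D387A alone, and because the window holds a full cyclic AMP response element. The sequence is RefSeq's, GRCm38.p6, chr5:91139349-91139648, plus strand, from 250 bases before the start to 50 after it, and the capitals mark the element (TGACGTCA, 61 bases before the start) and a TATA box (TATAAA, 31 bases before it).
Areg: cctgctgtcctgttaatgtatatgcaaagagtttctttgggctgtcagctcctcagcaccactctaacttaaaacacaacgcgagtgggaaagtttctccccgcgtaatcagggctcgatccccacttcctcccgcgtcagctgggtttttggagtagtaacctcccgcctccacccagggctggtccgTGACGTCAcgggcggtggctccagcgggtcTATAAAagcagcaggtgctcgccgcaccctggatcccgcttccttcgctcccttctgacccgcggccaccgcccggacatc
Of 32851 RefSeq promoter windows of the same length, 1.79% held TGACGTCA and 13.6% held TATAAA on either strand. Both motifs were added to the search after this sequence had been read. A match describes the letters and is not evidence of a bound factor. Windows were found for 3 of the 8 genes, Areg, Anxa1 and Krt7.

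Ereg (ENSMUSG00000029377, chr5:91074622-91093646, plus strand) encodes epiregulin, a ligand of EGF receptor and ErbB4, and overlaps an antisense gene whose reads cannot be told apart if strand was not used. Its reads were few in the controls, 213 in all over 3 embryos. Ereg stood at 0.721, 1.29 and 0.642 RPKM in Mlkl-/-, at 0.712, 0.556 and 0.658 RPKM in D387A alone and at 5.97, 6.14 and 6.28 RPKM in D387A Cflar-/- Mlkl-/-. Again only the last group lay wholly above the control. The log2 change was 2.80 ± 0.384 (adjusted p = 6.99e-06), a 6.96-fold rise. In the C362A set Ereg stood at 0.766, 0.875 and 1.13 RPKM in the controls, at 6.66, 7.26 and 8.92 RPKM in C362A Mlkl-/- and at 14.3, 11.5 and 6.95 RPKM in C362A Cflar-/- Mlkl-/-. Both mutant groups lay above the control and overlapped each other, with log2 changes of 3.05 ± 0.276 (adjusted p = 6.3e-07) and 3.57 ± 0.279 (adjusted p = 1.23e-07).

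Among the D387A groups Areg was highest in the Casp1-/- Ifnar1-/- group (29.5, 37.7 and 41.2 RPKM), which did not overlap D387A Cflar-/- Mlkl-/-. Below D387A Cflar-/- Mlkl-/- came the Casp1-/- Fadd-/- group with 10.6, 13.7 and 10.7 RPKM and the Casp1-/- group with 5.65, 4.96 and 23.1 RPKM. The Casp1-/- group overlapped both. Ereg was ordered differently, with D387A Cflar-/- Mlkl-/- on top, then Casp1-/- Ifnar1-/- (4.56, 4.04 and 4.38 RPKM), Casp1-/- (1.37, 1.36 and 4.34 RPKM) and Casp1-/- Fadd-/- (1.90, 2.76 and 1.30 RPKM), and the Casp1-/- group overlapped its neighbours in this order on both sides. In both genes the high value of the Casp1-/- group came from the third embryo. In C362A Mlkl-/- Casp1-/- Areg stood at 36.3, 31.9 and 25.5 RPKM and Ereg at 5.003, 3.95 and 2.82 RPKM, both wholly above the control. Over all libraries of a set, log2 levels of Areg and Ereg were correlated at r = 0.941 in the D387A set (18 libraries) and 0.953 in the C362A set (12 libraries), where the points share genotype groups, tissue and library sizes.

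Around Areg and Ereg the other genes of the cluster did not all move with them. Within 250 kb lie the neutrophil chemokine genes Cxcl1 and Cxcl2, the EGF family ligands Btc and Epgn, and Mthfd2l, a mitochondrial folate enzyme gene. Cxcl1 rose by 6.41 and Cxcl2 by 6.33 on the log2 scale in D387A Cflar-/- Mlkl-/-, and by 5.64 and 7.91 in C362A Mlkl-/-. Btc was called as higher too, with log2 changes of 1.501 and 1.52. Mthfd2l, which lies in the same interval, was not called (log2 changes of 0.36 and 0.29), and neither was Epgn (0.79 in the C362A set, under the count filter in the D387A set). Of 14 further genes of the EGF receptor pathway, 12 were tested in the D387A set and 13 in the C362A set. In D387A Cflar-/- Mlkl-/- 3 of 12 were called as higher and none as lower, led by Nrg1, an ErbB3 and ErbB4 ligand (log2 change 2.28), and Btc. In C362A Mlkl-/- 3 of 13 were called as higher, led by Nrg1 (2.17) and Hbegf, another EGF receptor ligand (1.78), and none as lower. In C362A Cflar-/- Mlkl-/- 4 of 13 were higher and 1 lower. Of all genes 22.2%, 18% and 24.6% were called in the same comparisons, and 9.4%, 10.4% and 13.4% were called as higher. With so few genes listed, nothing particular to this list is read from its counts. No receptor gene was called: Egfr changed by less than the threshold (log2 changes of 0.48 and 0.50 in the former 2 comparisons), as did Erbb2 (-0.53 and -0.70) and Erbb3 (-0.60 and -0.90).

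**Figure D2:**
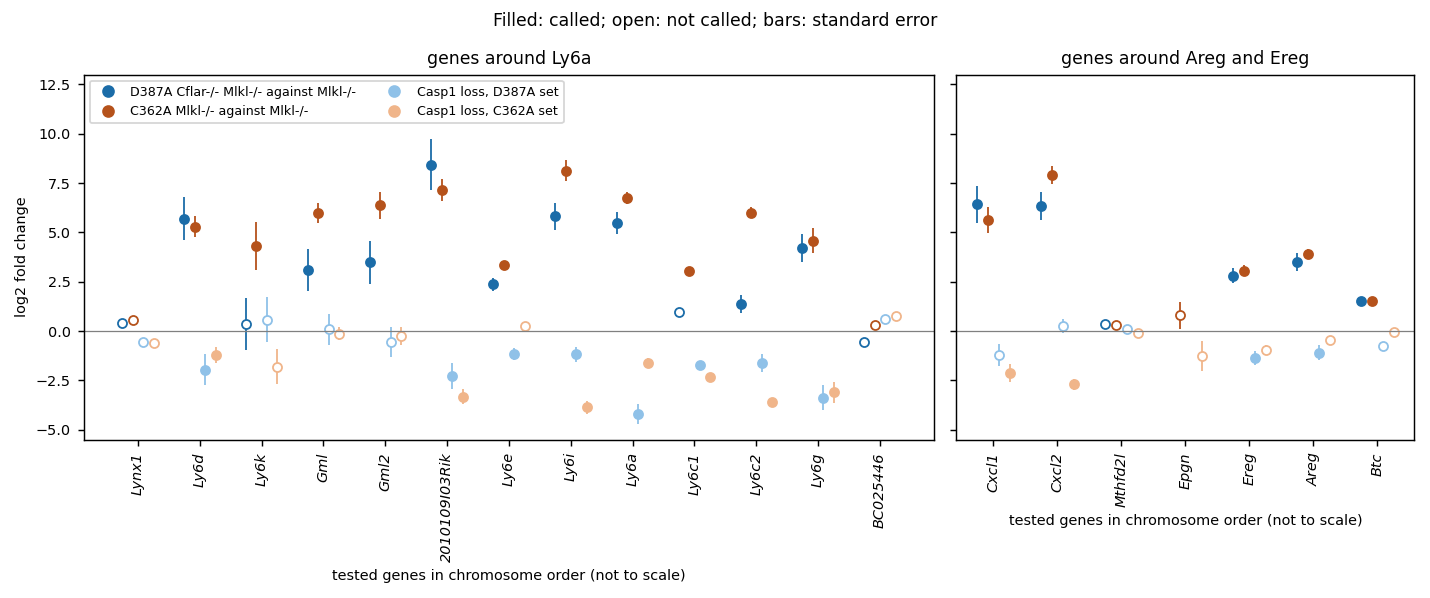
Log2 change of each tested gene within 250 kb of Ly6a and of Areg and Ereg, in chromosome order and not to scale. Filled points were called, open points were not, and bars are standard errors. Areg and Ereg stand between 2.80 and 3.92 in the 2 comparisons with Mlkl-/-, Cxcl1 and Cxcl2 between 5.64 and 7.91, and Mthfd2l at 0.36 and 0.29.

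Ly6a (ENSMUSG00000075602, chr15:74994877-74998031, minus strand) had the widest range of the 8 genes. It encodes Sca-1, a GPI-anchored surface protein that marks fetal-like epithelium and is also carried by hematopoietic progenitors, endothelium and lymphocytes, and it is a known interferon-induced gene. It stood at 11.4, 9.63 and 9.36 RPKM in Mlkl-/- and at 7.69, 9.36 and 9.54 RPKM in D387A alone. In D387A Cflar-/- Mlkl-/- it reached 443.5, 395.3 and 517 RPKM. These 3 embryos lay above all others of the set, and D387A alone overlapped the control. The log2 change was 5.48 ± 0.553 (adjusted p = 1.93e-07), a 44.6-fold rise. The C362A controls held 6.81, 7.81 and 6.43 RPKM, C362A Mlkl-/- 761.5, 727.3 and 743.5 RPKM and C362A Cflar-/- Mlkl-/- 717.9, 576.9 and 640.7 RPKM. Both mutant groups were far above the control and did not overlap each other, though the difference between them was not called (log2 change -0.21 ± 0.236, adjusted p = 0.596). The changes from Mlkl-/- were 6.73 ± 0.307 (adjusted p = 1.05e-09) and 6.52 ± 0.305 (adjusted p = 2.23e-09), or 105.8-fold and 91.7-fold. C362A Mlkl-/- Casp1-/- lay between, at 332.4, 263.3 and 134.1 RPKM, with a change from Mlkl-/- of 5.11 ± 0.287 (adjusted p = 9.24e-09).

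Of 11 other genes of the Ly6 family, most of them in the same cluster on chromosome 15, 7 were called as higher in D387A Cflar-/- Mlkl-/- and 9 in C362A Mlkl-/-, with none lower, and 9 were higher in C362A Cflar-/- Mlkl-/-. Ly6i and Ly6d had the largest rises in D387A Cflar-/- Mlkl-/-, Ly6i from a mean of 0.0291 to 1.92 RPKM and Ly6d from 1.42 to 74.95 RPKM. In C362A Mlkl-/- they were Ly6i, from 0.0225 to 7.30 RPKM, and Ly6c2, a monocyte surface gene, from 0.156 to 10.54 RPKM. With Ly6i so close to 0 in the controls, no fold is given for it. The neutrophil marker Ly6g lies in the cluster as well and rose by 4.20 and 4.58. At the edges of the interval Lynx1 and BC025446 were not called in either comparison (log2 changes of 0.41 and -0.55 in D387A Cflar-/- Mlkl-/-, 0.58 and 0.29 in C362A Mlkl-/-). Ly6 genes have near-identical copies in this cluster and only uniquely mapped reads were counted, so the division of reads among them is uncertain. The sum of 10 neutrophil genes moved with Ly6a: it was 9.42 to 39.3 RPKM in the D387A controls against 68.1 to 243.3 RPKM in D387A Cflar-/- Mlkl-/-, and 19.9 to 54.3 RPKM against 584.8 to 722.4 RPKM in C362A Mlkl-/-, with 5 of 9 tested genes called as higher and 1 as lower in the former and 6 of 9 higher in the latter. After Ly6g the largest rise in the former was S100a8 (3.22) and the fall was Mpo (-2.03), and S100a9 (4.78) and S100a8 (4.69) led in the latter. Of 8 macrophage genes 1, Adgre1 (1.03), was called as higher and 1, Csf1r (-1.83), as lower in the former, and 5 as higher in the latter, led by Fcgr1 (2.49) and Cd68 (2.00). The 8 endothelial genes had median log2 changes of 0.25 and -0.02 and the 6 fibroblast genes of 0.39 and -0.04 in these comparisons. The part of these cells in the Ly6a level was not tested.

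Anxa1 and Anxa3 encode annexins, calcium-dependent proteins that bind membrane phospholipids, and Anxa1 is known for dampening inflammation and aiding epithelial repair. Anxa1 (ENSMUSG00000024659, chr19:20373428-20390944, minus strand; it overlaps a non-coding gene on the other strand) stood at 16.5, 15.4 and 19.1 RPKM in Mlkl-/- and at 15.1, 16.1 and 17.98 RPKM in D387A alone, and at 49.8, 41.4 and 50.5 RPKM in D387A Cflar-/- Mlkl-/-. The last group lay wholly above both others. The log2 change was 1.47 ± 0.206 (adjusted p = 8.42e-06). The C362A set had Anxa1 at 13.4, 12.97 and 10.52 RPKM in the controls, 42.0, 34.6 and 47.1 RPKM in C362A Mlkl-/- and 46.4, 46.9 and 41.7 RPKM in C362A Cflar-/- Mlkl-/-. Both mutant groups lay above the control and overlapped each other, with changes of 1.74 ± 0.138 (adjusted p = 1.72e-07) and 1.87 ± 0.139 (adjusted p = 7.62e-08).

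The Anxa1 promoter window is shown because it holds the only match among the 3 windows to one of the 5 factor motifs searched first, the TEAD core through which YAP acts. It is RefSeq's, GRCm38.p6, chr19:20390622-20390921, minus strand, with CATTCC (236 bases before the start, a GGAATG read on the other strand) and a TATA box 32 bases before the start in capitals.
Anxa1: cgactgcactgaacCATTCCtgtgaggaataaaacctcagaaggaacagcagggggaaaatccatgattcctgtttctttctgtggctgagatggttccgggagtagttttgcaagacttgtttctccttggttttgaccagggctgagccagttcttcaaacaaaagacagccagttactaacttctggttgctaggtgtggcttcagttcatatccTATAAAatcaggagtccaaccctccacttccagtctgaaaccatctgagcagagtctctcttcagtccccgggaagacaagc
GGAATG was searched on both strands and occurs in 14.7% of all 32851 windows. No window of the 3 held the letters searched for AP-1 (7.81% of all windows), GAS (8.3%), ISRE (3.44%) or NF-kB (1.47%), and the Krt7 window held none of the 7 motifs.

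Anxa3 (ENSMUSG00000029484, chr5:96793339-96845966, plus strand, overlapping an unconfirmed gene on the same strand) changed by about as much as Anxa1. Its levels were 8.55, 7.51 and 10.02 RPKM in Mlkl-/-, 10.4, 8.53 and 10.3 RPKM in D387A alone and 19.8, 24.3 and 24.8 RPKM in D387A Cflar-/- Mlkl-/-, where all 3 embryos were above both other groups (log2 change 1.40 ± 0.157, adjusted p = 7.07e-07). They were, in the C362A set, 9.06, 9.72 and 11.9 RPKM in the controls, 22.7, 22.1 and 22.5 RPKM in C362A Mlkl-/- and 25.9, 31.1 and 25.9 RPKM in C362A Cflar-/- Mlkl-/-. The changes from the control were 1.13 ± 0.116 (adjusted p = 2.28e-06) and 1.43 ± 0.116 (adjusted p = 1.76e-07), and no control overlapped either group. Of the 10 other annexins, 2 were called as higher and 2 as lower in each of D387A Cflar-/- Mlkl-/- and C362A Mlkl-/-, and 2 as higher and 1 as lower in C362A Cflar-/- Mlkl-/-. Anxa10 rose by 2.31 and 7.498 on the log2 scale and Anxa2 by 1.14 and 1.17, while the enterocyte annexin Anxa13 fell by 1.53 and 1.27. Anxa9 was called as lower in D387A Cflar-/- Mlkl-/- (-1.17) and Anxa8 in C362A Mlkl-/- (-1.13). The mean of Anxa10 in the D387A controls was 2.05 ± 3.32 RPKM (SD, n = 3). Whether the third control, which has stomach transcripts, sets this spread was not tested.

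Clu (ENSMUSG00000022037, chr14:65968483-65981547, plus strand) encodes clusterin, a secreted chaperone that marks the revival stem cells seen after irradiation. It was not called in D387A Cflar-/- Mlkl-/-, where it stood at 8.59, 10.03 and 12.2 RPKM. The Mlkl-/- embryos held 5.38, 5.805 and 21.7 RPKM, and D387A alone 5.85, 5.84 and 6.49 RPKM. The third control was higher than every D387A Cflar-/- Mlkl-/- embryo, and the other 2 controls were lower than all 3. The log2 change was -0.09 ± 0.354 (adjusted p = 0.838) with all controls and 0.88 without the third (adjusted p = 0.000294), still short of a call. That control is the library with 297.2 RPKM of stomach genes. Of 8 stomach genes tested in the D387A set 5 were called as lower in D387A Cflar-/- Mlkl-/- than in Mlkl-/-, led by Tff1 (-5.13) and Pgc (-4.50). Without the third control 1 was called as lower and 2 as higher. Of 6 tested in the C362A set 4 were called as higher in C362A Mlkl-/-, led by Gkn2 (from 0 in all controls to a mean of 1.57 RPKM) and Tff1 (log2 change 5.84), and 1, Atp4a (-1.67), as lower. Of 5 pancreatic acinar genes 2, Ctrb1 (-2.42) and Cela1 (-2.28), were called as lower in the former and 1, Cela1 (-1.25), in the latter. Of 2 urothelial or squamous genes 1, Upk3a (-3.46), was called as lower in the former and none in the latter. In 7 of the 10 groups of both sets the embryo with the highest stomach sum also had the highest Clu of its group. With 3 embryos a group some such matches arise by chance, and this count was not tested. The third D387A embryo had 79.4 RPKM of stomach genes and 6.49 RPKM of Clu, the third C362A Mlkl-/- embryo 103.4 and 8.27 RPKM, and the third Casp1-/- Fadd-/- embryo 61.1 and 6.75 RPKM against 5.31 and 4.96 RPKM of Clu in the other 2 of its group. Clu was also high at low stomach sums: the first C362A Mlkl-/- embryo had 8.21 RPKM of Clu with 3.07 RPKM of stomach genes, and the second C362A Cflar-/- Mlkl-/- embryo, with the highest Clu of the C362A set (13.9 RPKM), had 6.21 RPKM. Whether stomach tissue gave the Clu reads was not tested.

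Clu in the C362A set stood at 4.45, 3.84 and 4.17 RPKM in the controls, 8.21, 4.68 and 8.27 RPKM in C362A Mlkl-/- and 7.75, 13.9 and 7.64 RPKM in C362A Cflar-/- Mlkl-/-. All 6 mutant embryos were above all 3 controls. The change was 0.76 ± 0.278 in C362A Mlkl-/- (adjusted p = 0.039, not called) and 1.23 ± 0.278 in C362A Cflar-/- Mlkl-/- (adjusted p = 0.00186), the latter falling to 0.89, short of a call, without the second C362A Cflar-/- Mlkl-/- embryo. That embryo had 163.1 RPKM of pancreatic acinar genes against 41.6 and 16.1 RPKM in its group, and their part in its Clu level was not tested. The Casp1-/-, Casp1-/- Ifnar1-/- and Casp1-/- Fadd-/- embryos of the D387A set ranged from 4.52 to 8.23 RPKM. Against Mlkl-/- Clu was called as lower in the Casp1-/- group (-1.11 ± 0.366, adjusted p = 0.0388), but the groups overlapped, and without the third control the change was -0.14 (adjusted p = 0.614). This call was also lost without any 1 of the 3 Casp1-/- embryos (log2 changes from -1.19 to -1.03), by limma-voom (-0.80), with raw library totals (adjusted p = 0.0554), with the replicate block (adjusted p = 0.0504) and with a fit on only the 2 groups (adjusted p = 0.186). In the Casp1-/- Fadd-/- group the change of -0.95 was not called (adjusted p = 0.0796), and it became a call without the first or second control (-1.29 and -1.26), while without the third control it was 0.019 (adjusted p = 0.961). The change in the Casp1-/- Ifnar1-/- group likewise went from -0.57 to 0.40 without the third control (adjusted p = 0.0621).

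**Figure D3:**
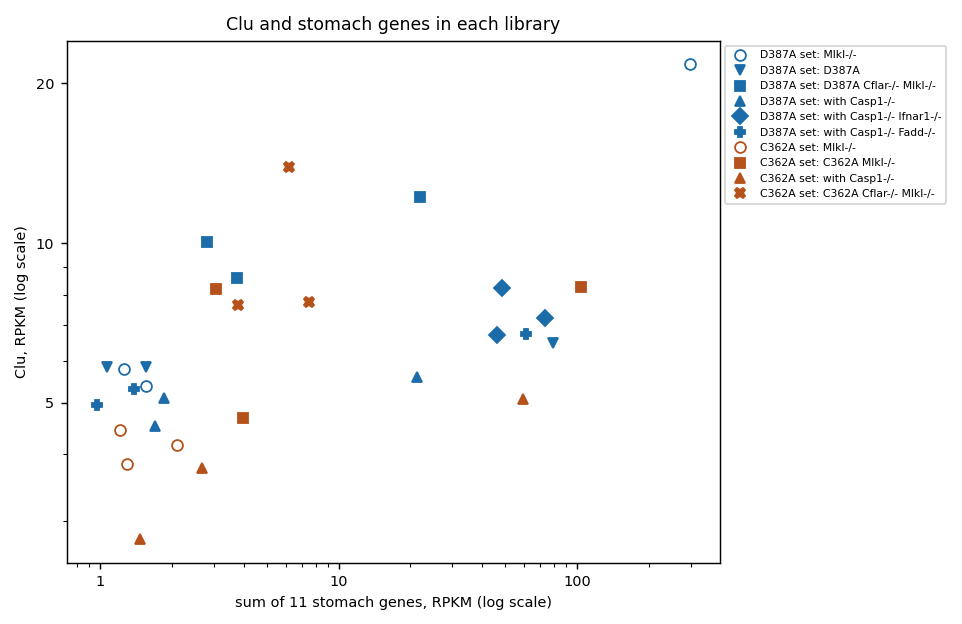
Clu (RPKM, log scale) against the summed level of 11 stomach genes (RPKM, log scale) in each of the 30 E18.5 intestine libraries, with symbols for genotype groups. The third Mlkl-/- embryo of the D387A set lies alone at 297.2 and 21.7 RPKM, and the third C362A Mlkl-/- embryo (103.4 and 8.27 RPKM) and the third D387A embryo (79.4 and 6.49 RPKM) follow in stomach level, each with the highest Clu of its group, while the second C362A Cflar-/- Mlkl-/- embryo has 13.9 RPKM of Clu at 6.21 RPKM.

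Msln and Krt7 had the smallest changes in D387A Cflar-/- Mlkl-/- after Clu. Msln (ENSMUSG00000063011, chr17:25748613-25754378, minus strand) encodes mesothelin, a surface glycoprotein of the serosal mesothelium that fetal-like epithelium also expresses. It stood at 12.1, 17.6 and 16.3 RPKM in Mlkl-/- and at 23.4, 34.0 and 20.8 RPKM in D387A Cflar-/- Mlkl-/-, with no overlap (log2 change 0.76 ± 0.253, adjusted p = 0.0153, under the fold threshold). Msln in the C362A controls was at 13.7, 12.9 and 15.8 RPKM, in C362A Mlkl-/- at 20.9, 25.2 and 16.4 RPKM (0.56, adjusted p = 0.0588) and in C362A Cflar-/- Mlkl-/- at 33.5, 35.7 and 20.6 RPKM. Only the last was a call (1.09 ± 0.226, adjusted p = 0.001), and it fell just short of the fold threshold without the first or second embryo of that genotype (0.996 and 0.94). Of 8 mesothelial genes that do not include Msln, 1 was called as lower and none as higher in each of D387A Cflar-/- Mlkl-/- and C362A Mlkl-/-, in both cases Upk3b (-1.22 and -1.97). Their sum was 52.6 to 58.3 RPKM in the D387A controls and 36.2 to 46.5 RPKM in D387A Cflar-/- Mlkl-/-, the opposite direction to Msln, and 44.5 to 47 RPKM against 30.3 to 49.9 RPKM in C362A Cflar-/- Mlkl-/-. The summed smooth muscle genes moved with Msln, from 2648 to 2861 RPKM in the D387A controls to 3719 to 4689 RPKM in D387A Cflar-/- Mlkl-/-, and from 1359 to 2171 RPKM in the C362A controls to 3297 to 4092 RPKM in C362A Cflar-/- Mlkl-/-. Of 6 smooth muscle genes none was called in D387A Cflar-/- Mlkl-/- or C362A Mlkl-/- and 2 were called as higher in C362A Cflar-/- Mlkl-/-. The part of these cells in the Msln level was not tested.

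Krt7 (ENSMUSG00000023039, chr15:101411043-101430313, plus strand, overlapping an antisense gene) encodes a keratin of simple ductal epithelia. It was expressed in all libraries within a narrow range, 42.3 to 82.7 RPKM in the D387A set and 34.3 to 72.2 RPKM in the C362A set. D387A Cflar-/- Mlkl-/- embryos, at 71.3, 82.7 and 71.7 RPKM, lay above all others of the set (controls 50.7, 46.8 and 44.4 RPKM), and the change of 0.67 ± 0.111 passed the adjusted p (5.34e-05) but not the fold threshold. The C362A controls spread from 34.3 to 65.9 RPKM and overlapped both mutant groups (log2 changes of 0.33 and 0.27, adjusted p = 0.17 and 0.234). Of 7 tested keratins other than Krt7, 3 were called as higher in D387A Cflar-/- Mlkl-/-, with Krt19 (1.18) and Krt14 (1.14) the largest rises, 1 in C362A Mlkl-/-, Krt20 (2.23), and 3 in C362A Cflar-/- Mlkl-/-, with none lower.

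The wider fetal program was examined with 23 further genes known from fetal or regenerating intestine. In D387A Cflar-/- Mlkl-/- 17 of 23 were called as higher and none as lower (median log2 change 1.39), led by Sprr1a, a cornified envelope protein gene (4.30), and Plaur, the urokinase receptor gene (3.42). In C362A Mlkl-/- 18 were higher and 1, Anxa8, lower (median 1.70), led by Anxa10 (7.498) and Sprr1a (6.86), and in C362A Cflar-/- Mlkl-/- 16 were higher and none lower (median 1.63). With D387A alone none of the 23 was called. The list shares Anxa2, Anxa8 and Anxa10 with the annexins above. Of 20 genes of the Hippo pathway and YAP targets, 4 were called as higher in D387A Cflar-/- Mlkl-/-, 5 in C362A Mlkl-/- and 4 in C362A Cflar-/- Mlkl-/-, and none as lower. Of all genes 22.2%, 18% and 24.6% were called in these comparisons and 9.4%, 10.4% and 13.4% as higher, and nothing particular to this list is read from its counts. The targets Ankrd1 (from a mean of 0.0876 to 4.31 RPKM) and Ccn1 (log2 change 2.36) led in D387A Cflar-/- Mlkl-/-, and Ankrd1 (from 0.0234 to 0.936 RPKM) and Nt5e (2.92) in C362A Mlkl-/-. Of 10 intestinal stem cell genes 6 were called as higher in D387A Cflar-/- Mlkl-/- (Ascl2, 2.29, and Olfm4, 1.89, the largest) 1, Axin2 (1.48), in C362A Mlkl-/- and 2 in C362A Cflar-/- Mlkl-/-. Their sum was 187.1 to 430.7 RPKM in the last group against 103.7 to 129.1 RPKM in its controls. The difference between these counts was not tested. Absorptive enterocyte genes moved the other way to the fetal genes: 9 of 10 were called as lower in D387A Cflar-/- Mlkl-/-, with lactase (Lct) at -8.54 and Fabp1 at -7.51, 6 of 10 in C362A Mlkl-/-, led by trehalase (Treh, from a mean of 0.661 to 0.00588 RPKM) and Lct (-3.89), and 8 of 10 in C362A Cflar-/- Mlkl-/-. Their sum was 34048 to 38780 RPKM in the D387A controls and 1421 to 2889 RPKM in D387A Cflar-/- Mlkl-/-. Of 10 general epithelial genes, 2, Krt19 and Krt8 (1.08), were called as higher and none as lower in D387A Cflar-/- Mlkl-/- and none in C362A Mlkl-/-.

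**Figure D4:**
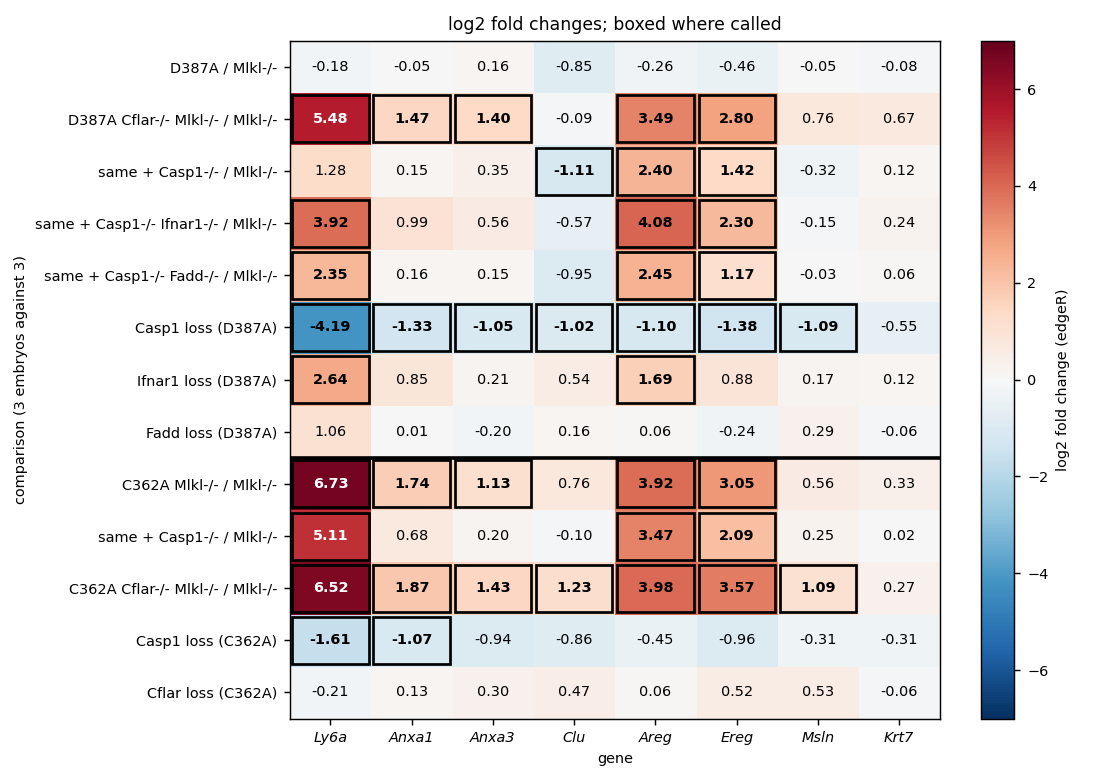
Log2 change of each of the 8 genes (columns) in each comparison of 3 embryos with 3 (rows; the D387A set above the line, the C362A set below), with boxes around called changes. Ly6a, Areg and Ereg are boxed in most comparisons with Mlkl-/-, and no box appears for D387A alone, for loss of Fadd or for loss of Cflar.

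Comparison of the D387A Cflar-/- Mlkl-/- groups with and without Casp1 asked what caspase-1 adds. With Casp1 lost 7 of the 8 genes were called as lower, all but Krt7 (13.4% of all genes called, 4.51% as lower), and values did not overlap for 7 of the 8, all but Areg (53.2% of all genes). Ly6a fell from 443.5, 395.3 and 517 RPKM to 9.06, 8.33 and 56.9 RPKM, a log2 change of -4.19 ± 0.512 (adjusted p = 4.2e-06). Anxa1 fell to 19.0, 14.3 and 23.2 RPKM (-1.33 ± 0.204, adjusted p = 4.69e-05) and Anxa3 to 11.5, 9.21 and 12.4 RPKM (-1.05 ± 0.155, adjusted p = 2.97e-05). All 3 genes came down to levels that overlapped the control. Areg fell by 1.10 (adjusted p = 0.0236), Ereg by 1.38 (adjusted p = 0.0037), Msln by 1.09 (adjusted p = 0.00213) and Clu by 1.02 (adjusted p = 0.0296). The call for Areg was lost without the third D387A Cflar-/- Mlkl-/- embryo, or the first or second Casp1-/- embryo (changes from -1.06 to -0.74), that for Clu without any 1 of 4 embryos (-1.09 to -0.88: the second or the third D387A Cflar-/- Mlkl-/- embryo, the first or second Casp1-/- embryo), that for Msln without the second D387A Cflar-/- Mlkl-/- or second Casp1-/- embryo (-0.85 and -0.94), and that for Anxa3 without the third D387A Cflar-/- Mlkl-/- or second Casp1-/- embryo (-0.996 and -0.94). The neutrophil sum fell from 68.1 to 243.3 RPKM to 17.3 to 51.0 RPKM in this comparison and the smooth muscle sum from 3719 to 4689 RPKM to 2386 to 2588 RPKM, with 4 of 9 and 1 of 6 genes called as lower, and their part in the changes was not tested. With a fit on only the 2 groups the Areg call was lost too (adjusted p = 0.144), and with the replicate block that for Clu (-0.99). The count of calls was 3 without the second Casp1-/- embryo and 4 without the third D387A Cflar-/- Mlkl-/- embryo. Over the alternative fits of this comparison 1581 to 2947 of all genes were called.

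The third Casp1-/- embryo weighed on the size of several of these changes. It held 56.9 RPKM of Ly6a, 23.1 RPKM of Areg and 4.34 RPKM of Ereg, each above the other 2 embryos of its group. Without it the changes on loss of Casp1 were -5.70 for Ly6a (adjusted p = 7.8e-13), -2.17 for Areg (adjusted p = 8.44e-09) and -2.17 for Ereg (adjusted p = 1.77e-06). With another single library left out instead, the smallest changes were -3.78 for Ly6a, -0.74 for Areg and -1.11 for Ereg. The third Casp1-/- embryo also had a summed neutrophil level of 51.0 RPKM against 17.3 and 22.9 RPKM in its group. Its macrophage sum was 362.6 RPKM against 217.5 and 210.1 RPKM. Its epithelial sum was 3149 RPKM against 2094 and 2287 RPKM, and D387A Cflar-/- Mlkl-/- had 2952 to 3259 RPKM. The part of these in its values was not tested, nor which embryos are typical of the genotype. Of the 23 further fetal genes 11 were called as lower on loss of Casp1 with all embryos (median log2 change -1.05) and 17 without the third. Enterocyte genes rose, 9 of 10 called as higher.

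Against Mlkl-/- the Casp1-/- group kept 2 genes called as higher, Areg (2.40 ± 0.442, adjusted p = 0.00127) and Ereg (1.42 ± 0.386, adjusted p = 0.015), and 1 as lower, Clu (4.34% of all genes called). Values did not overlap for Areg and Ereg, 2 of the 8 (37.5% of all genes). Without the third Casp1-/- embryo Areg was still called (1.32, adjusted p = 0.000133) and Ereg was not (0.63, adjusted p = 0.121), nor was Ereg without the first or the third control (1.28 and 1.23), or with a fit on only the 2 groups (adjusted p = 0.109). Ly6a was at 1.28 ± 0.500 (adjusted p = 0.077) with all embryos, at -0.22 (adjusted p = 0.48) without the third and called without the first or second (1.68 and 1.70), with raw library totals (1.38) and with no filter on low counts (1.27). In all, 1 of the 8 was called without the third Casp1-/- embryo (3.19% of all genes) and 1 without the third control (3.81%).

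In the C362A set loss of Casp1 called 2 of the 8 genes as lower, Ly6a and Anxa1 (11.3% of all genes called, 5.72% as lower), and values did not overlap for 6 of the 8 (53.5% of all genes). Ly6a fell from 761.5, 727.3 and 743.5 RPKM to 332.4, 263.3 and 134.1 RPKM (-1.61 ± 0.242, adjusted p = 0.000184) and Anxa1 from 42.0, 34.6 and 47.1 RPKM to 17.0, 21.6 and 20.4 RPKM (-1.07 ± 0.135, adjusted p = 4.29e-05). Anxa3 (-0.94), Ereg (-0.96) and Clu (-0.86) passed the adjusted p but not the fold threshold, and Areg did not pass either (-0.45, adjusted p = 0.108). The Anxa1 call was lost without the third C362A Mlkl-/- or the first Casp1-/- embryo (-0.96 and -0.98), while Clu was called without the second C362A Mlkl-/- or the third Casp1-/- embryo (-1.09 and -1.12) and Ereg without the first of either group (-1.04 and -1.18). Without the third C362A Mlkl-/- embryo 1 of the 8 was called. Library totals in place of scaled sizes moved the median of all genes by -0.27 here and called 5 of the 8 genes. Over the alternative fits of this comparison 1483 to 2590 of all genes were called. Against its control C362A Mlkl-/- Casp1-/- was still called as higher for 3 of the 8 genes (10.5% of all genes called): Ly6a (5.11), Areg (3.47 ± 0.241, adjusted p = 8.87e-08) and Ereg (2.09 ± 0.273, adjusted p = 5.65e-05). Values did not overlap for 4 of the 8, these 3 and Anxa1 (51% of all genes). Of the 23 further fetal genes 13 were called as lower on loss of Casp1 and none as higher (median -1.14). Neutrophil genes moved with these changes, 6 of 9 called as lower, and their part was not tested. Loss of Cflar on the C362A Mlkl-/- background called 0 of the 8 genes by edgeR (6.06% of all genes), 2 at an unadjusted p under 0.05, 0 by DESeq2 and 0 by limma-voom, and values did not overlap for 2, Ly6a and Anxa3 (32.3% of all genes).

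Loss of Ifnar1 on top of D387A Cflar-/- Mlkl-/- Casp1-/- was followed by higher and not lower levels of the interferon-responsive Ly6a. It stood at 143.4, 151.4 and 166.5 RPKM, above all Casp1-/- and below all D387A Cflar-/- Mlkl-/- embryos, with a change from Casp1-/- of 2.64 ± 0.482 (adjusted p = 0.00119) and from Mlkl-/- of 3.92 ± 0.522 (adjusted p = 1.41e-05). Areg rose by 1.69 ± 0.378 from Casp1-/- (adjusted p = 0.00377) and was at 4.08 ± 0.445 from Mlkl-/- (adjusted p = 2.17e-06). These were the 2 calls of 8 on loss of Ifnar1 (5.31% of all genes), and values did not overlap for 4 of the 8 (35.7% of all genes). With a fit on only the 2 groups neither was called (adjusted p = 0.0558 and 0.08), while limma-voom called Ereg as well (1.12, adjusted p = 0.01). Without the third Casp1-/- embryo there were 4 calls (9.31% of all genes), with changes of 4.14 for Ly6a, 2.77 for Areg, 1.66 for Ereg and 1.02 for Anxa1. Against Mlkl-/- 3 of the 8 were called as higher (12.4% of all genes), the third being Ereg (2.30 ± 0.382, adjusted p = 0.000116), and values did not overlap for 5 of the 8 (56.9% of all genes). Anxa1, at 27.2, 37.7 and 36.7 RPKM, was just short of a call (0.99 ± 0.205, adjusted p = 0.000766) and was called without the third control or the first embryo of the group (1.08 and 1.13), with raw library totals (1.02) and with a fit on only the 2 groups (1.005). Of the 23 further fetal genes 9 were called as higher and 1 as lower against Mlkl-/-, and 13 and 1 without the third control. The 3 Casp1-/- Ifnar1-/- embryos carried their own title number and stomach sums of 46.1 to 73.5 RPKM, against 1.7, 21.2 and 1.85 RPKM in the Casp1-/- group. Their pancreatic acinar sums were 49.7 to 114.7 RPKM against 7.81 to 9.28 RPKM in the Casp1-/- group. Their neutrophil sums (49.2 to 67.5 RPKM) and macrophage sums (293.5 to 327.9 RPKM) lay above those of Mlkl-/- (9.42 to 39.3 and 189.2 to 213.2 RPKM), and their epithelial sums (3199 to 3324 RPKM) above those of the Casp1-/- group (2094 to 3149 RPKM). The part of these tissues and cells in the changes was not tested.

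Loss of Fadd on the same background called 0 of the 8 genes by edgeR (3.44% of all genes), and no gene had values without overlap (29.6% of all genes). At an unadjusted p under 0.05 the count was 1, DESeq2 called 0 and limma-voom 1. Ly6a stood at 57.7, 59.8 and 37.1 RPKM, overlapping the third Casp1-/- embryo (1.06 ± 0.468, adjusted p = 0.128). limma-voom called Ly6a (1.65, adjusted p = 0.0112), and so did edgeR with no filter on low counts (1.08). Without the third Casp1-/- embryo 2 genes were called as higher on loss of Fadd (4.85% of all genes called), Ly6a (2.57, adjusted p = 2.75e-08) and Areg (1.13, adjusted p = 7.51e-05). Against Mlkl-/- 3 of the 8 were called as higher in Casp1-/- Fadd-/- (3.78% of all genes): Ly6a (2.35 ± 0.501, adjusted p = 0.00343), Areg (2.45 ± 0.441, adjusted p = 0.000919) and Ereg (1.17 ± 0.387, adjusted p = 0.0435). Values did not overlap for these 3 (38% of all genes). The part of other cell types and tissues in these changes was not tested. The Ereg call was lost without any 1 of 12 libraries of the set, with changes between 0.86 and 1.196 and adjusted p from 0.0528 upwards, and by limma-voom (adjusted p = 0.059). Of the 23 further fetal genes 1 was called as higher and none as lower. Enterocyte genes summed to 35522 to 40971 RPKM in this group, a range that overlaps the controls.

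The sets were compared gene by gene in a fit over all 30 libraries, in which each set had its own controls. The fall of Ly6a on loss of Casp1 was larger in D387A Cflar-/- Mlkl-/- (-4.19) than in C362A Mlkl-/- (-1.61), with a difference of -2.56 ± 0.577 on the log2 scale (adjusted p = 0.0041), and it was the single call among the 8 genes (5.73% of 19643 genes called). The backgrounds also differ in Cflar, which D387A Cflar-/- Mlkl-/- lacks and C362A Mlkl-/- has. For the response to the mutant genotypes themselves no difference was called, whether D387A Cflar-/- Mlkl-/- was set against C362A Mlkl-/- (7.46% of genes called) or against C362A Cflar-/- Mlkl-/- (0.0764%). The Ly6a rise differed by -1.25 ± 0.604 from that in C362A Mlkl-/- (adjusted p = 0.158) and became a call without the third D387A Cflar-/- Mlkl-/- Casp1-/- embryo, at the same size (-1.25, adjusted p = 0.00475). The Clu change differed by -1.34 ± 0.488 from that in C362A Cflar-/- Mlkl-/- (adjusted p = 0.131), and was called without the third embryo of the latter (-1.48, adjusted p = 0.0491), but it was -0.36 without the third Mlkl-/- embryo of the D387A set (adjusted p = 0.596). For Areg the difference was -0.42 ± 0.542 against C362A Mlkl-/- and for Ereg -0.25 ± 0.500, with standard errors that leave room for changes of the same size. On loss of Casp1 Areg differed by -0.63 (adjusted p = 0.362) and Ereg by -0.41 (adjusted p = 0.572) with all embryos, and by -1.70 (adjusted p = 0.000213) and -1.18 (adjusted p = 0.0282), both called, without the third D387A Cflar-/- Mlkl-/- Casp1-/- embryo.

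**Figure D5:**
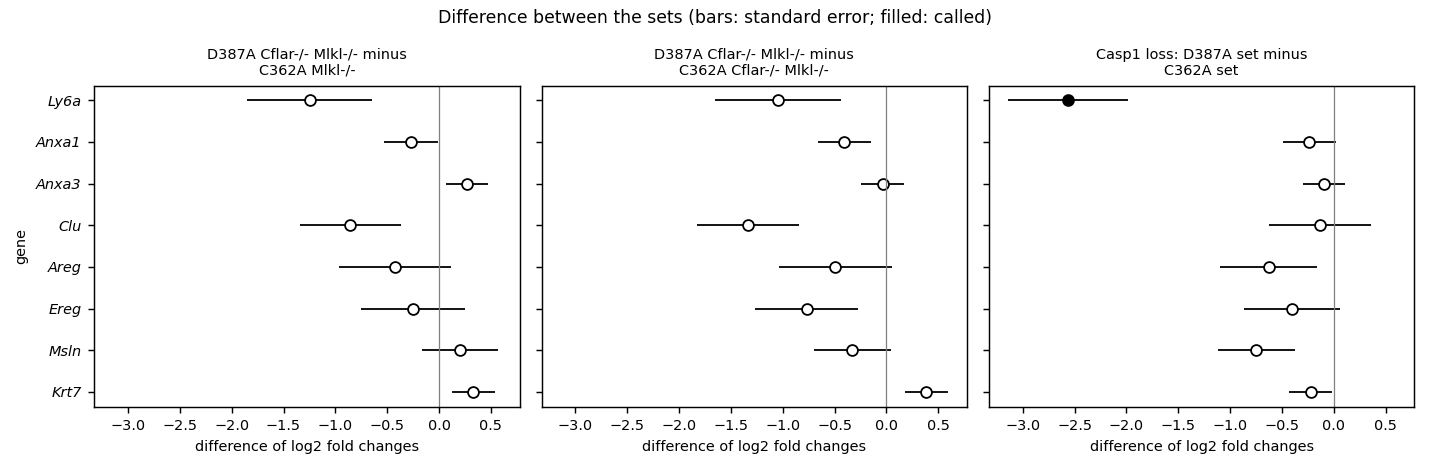
Difference between the log2 changes of the D387A and C362A sets (D387A minus C362A) for each of the 8 genes, with standard errors, in 3 comparisons; filled points were called. Ly6a on loss of Casp1, at -2.56, is the one filled point.

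Each of the 8 genes was also set beside 18196 genes tested in both sets by the lower of its Pearson correlations of log2 CPM in the 18 D387A and 12 C362A libraries. These values describe shared variation over genotype groups and carry no test. The genes most like Ly6a were Smpdl3b (r = 0.981 and 0.977), Mcm10 and Fam111a. Areg was nearest to Upp1 (0.982 and 0.978), the chemokine gene Cxcl16 and Ifrd1, and Ereg to Phlda1 (0.973 and 0.971), Hpse and Mak16. Anxa1 was nearest to S100a6, a calcium-binding protein gene of the fetal list (0.978 and 0.957), Cd9 and the chemokine receptor gene Ccr1. Among the genes nearest to Anxa3 were Prf1, the perforin gene (0.946 and 0.947), and Cd9. Clu had its highest values with Mucl3 (0.825 and 0.783), Spp1 and the stomach gene Gkn1 (0.860 and 0.775), Msln with Ptgis (0.868 and 0.897), Krt14 and Tagln, and Krt7 with Eif3b (0.955 and 0.944), Ets2 and Nop14. Among the 8 genes themselves Ly6a and Areg were at 0.896 and 0.977, Anxa1 and Anxa3 at 0.903 and 0.935, and Clu and Areg at 0.104 and 0.493.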

How the data were processed

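RNA-seq was done on 30 E18.5 intestine and 6 mouse embryonic fibroblast (MEF) libraries, 3 per genotype. The authors aligned reads to GRCm38/mm10 with GSNAP, kept uniquely mapped reads and deposited, for each library, the count of reads on the exons of each Ensembl gene, the exonic width and an RPKM value scaled by a library total of their own. The counting program, annotation release and strand setting are not given in the sources used here, and the labels and the methods name different library kits and sequencers. Only the deposited counts and widths were used for results; RPKM was recomputed from them on TMM-scaled library sizes of each set. Widths differ from GENCODE M21 exon unions for 6 of the 8 genes, which affects levels between genes and not changes. Groups came from the labels. Titles were used for the Mlkl-/- controls and the MEFs. Titles of the D387A set's controls do not name Mlkl, and those of the MEF mutants do not name D387A. The paper's figure legends give both genotypes.

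Tests used edgeR 4.0.16 under R 4.3.3 on the counts (TMM, filterByExpr with 10 and 15 reads, quasi-likelihood F test, prior count 0.125, Benjamini-Hochberg over all genes), in 1 fit for each set and 1 over both sets for differences between them. A call needed a log2 change beyond 1 and an adjusted p under 0.05. Alternatives were DESeq2 1.42.0, limma-voom 3.58.1, other scalings, filters and prior count, a fit on the compared groups only, a replicate block, and leaving out single libraries. The test was checked on simulated data. Depth was 17943524 to 31052238 reads on genes. Same-numbered libraries of different groups did not deviate together, so they were not paired. The paper describes the Mlkl-/- controls of D387A Cflar-/- Mlkl-/-, C362A Mlkl-/- and C362A Cflar-/- Mlkl-/- as littermates. Which embryos share a litter is not known here, so litters were not modelled, and the replicate numbers do not test for them.

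All 8 genes are named throughout. Of other lists the counts are given for the comparisons described, with the 2 largest rises and 2 largest falls among called genes in D387A Cflar-/- Mlkl-/- and C362A Mlkl-/-; the 3 genes most similar to each of the 8, the neighbours within 250 kb and motifs in promoter windows were added. Erbb genes, and members of small counts, were named after their values were seen. The 8 genes and the lists were chosen with earlier results of these data known.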

Additional observations from a re-analysis of the deposited data

Results flagged for a closer look

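The fall of Ly6a on loss of Casp1 differed between the 2 genetic backgrounds. In D387A Cflar-/- Mlkl-/- the log2 change was -4.19, and in C362A Mlkl-/- it was -1.61. The difference, D387A minus C362A, was -2.5629 (SE 0.577, adjusted p = 0.0041 by edgeR's quasi-likelihood test over 30 libraries), and Ly6a was lower in all 3 Casp1-/- embryos than in all 3 embryos with Casp1 on both backgrounds. It was called with each library left out in turn (-4.06 to -2.15), the largest without the third D387A Cflar-/- Mlkl-/- Casp1-/- embryo, whose Ly6a level of 56.9 RPKM stood above the 9.06 and 8.33 RPKM of its group. The levels left without Casp1 were 8.33 to 56.9 RPKM in the former set, overlapping its controls, and 134.1 to 332.4 RPKM in the latter, above its controls. The backgrounds differ in the Casp8 allele, in Cflar and in the set of libraries, and these cannot be told apart.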

How the results depend on the processing

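Of 13 counts of called genes under the other tools and settings, 5 values moved by over 1.5 times. With a fit on only the 2 groups compared, 1 of the 8 genes was called in D387A Cflar-/- Mlkl-/- Casp1-/- against Mlkl-/- (3 in the reported fit) and 0 on loss of Ifnar1 (2 in the reported fit). On loss of Fadd 1 was called by limma-voom and 1 with no filter on low counts (0 in the reported fit), and with raw library totals 5 were called on loss of Casp1 in the C362A set (2 in the reported fit). The cause was not tested, except that the fit on 2 groups has fewer libraries. With each library left out in turn the count was 1 to 3 for D387A Cflar-/- Mlkl-/- Casp1-/- against Mlkl-/-, 3 to 7 for loss of Casp1 in the D387A set, 2 to 4 for loss of Ifnar1, 0 to 2 for loss of Fadd and 1 to 3 for loss of Casp1 in the C362A set. Counts of all genes called moved over the alternative fits as well. In the same order they ranged from 456 to 990, 1581 to 2947, 411 to 1740, 322 to 907 and 1483 to 2590. The count among the 8 genes stayed at 5 for D387A Cflar-/- Mlkl-/- and for C362A Mlkl-/- against Mlkl-/-. Where a group was left with 2 embryos, its spread was taken from the whole fit.

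Of single log2 changes, 904 values under alternatives other than leaving out a library kept their direction and side of the threshold, 10 gained a call, 11 lost one and 11 changed sign, as did 2 differences between the sets. None that was called changed sign. Clu in D387A Cflar-/- Mlkl-/- went to 0.21 by limma-voom, 0.10 with raw totals and 0.023 with the replicate block. With raw totals the changes on loss of Fadd were -0.18 for Anxa1 (-0.017 by limma-voom), -0.030 for Clu and -0.11 for Areg. Krt7 went to -0.0058 in Casp1-/- Fadd-/- against Mlkl-/-, to -0.10 in C362A Mlkl-/- Casp1-/- against Mlkl-/- (-0.0034 with no filter) and to 0.072 on loss of Cflar, and the set differences on loss of Casp1 to 0.065 for Anxa3 and 0.018 for Clu. With single libraries left out, 32 uncalled changes and 12 uncalled differences between the sets changed sign. Ranges against Mlkl-/- were, for D387A alone, -0.13 to 0.041 (Anxa1), -1.18 to 0.12 (Clu) and -0.26 to 0.22 (Msln); for D387A Cflar-/- Mlkl-/-, -0.41 to 0.88 (Clu); with Casp1-/-, -0.22 to 1.70 (Ly6a), -0.031 to 0.31 (Anxa1) and -0.016 to 0.19 (Krt7); with Casp1-/- Ifnar1-/-, -0.91 to 0.40 (Clu); with Casp1-/- Fadd-/-, -0.078 to 0.38 (Anxa1), -1.29 to 0.019 (Clu), -0.27 to 0.099 (Msln) and -0.050 to 0.11 (Krt7); and for C362A Mlkl-/- Casp1-/-, -0.36 to 0.074 (Clu) and -0.20 to 0.24 (Krt7). On loss of Fadd they were -0.22 to 0.24 (Anxa1), -0.30 to 1.13 (Areg), -0.56 to 0.54 (Ereg) and -0.16 to 0.075 (Krt7), and on loss of Cflar -0.085 to 0.25 (Areg) and -0.16 to 0.049 (Krt7). Differences between the sets ranged, against C362A Mlkl-/-, from -1.18 to 0.12 (Clu), -0.43 to 0.12 (Ereg) and -0.037 to 0.38 (Msln), against C362A Cflar-/- Mlkl-/- from -0.17 to 0.083 (Anxa3), and on loss of Casp1 from -0.19 to 0.0215 (Anxa3) and -0.32 to 0.11 (Clu). Raw library totals moved the median of all genes by up to 0.28 (C362A Cflar-/- Mlkl-/- against Mlkl-/-), and relative log expression by far less. Same-numbered libraries correlated in their deviations at -0.28 to 0.22 in the D387A set (45 pairs, median -0.01) and -0.44 to 0.29 in the C362A set (18 pairs, median -0.06). With a replicate block 3 calls were lost: Clu in D387A Cflar-/- Mlkl-/- Casp1-/- against Mlkl-/- (-0.97, adjusted p = 0.0504), Clu on loss of Casp1 in the D387A set (-0.99) and Ereg in D387A Cflar-/- Mlkl-/- Casp1-/- Fadd-/- against Mlkl-/- (1.18, adjusted p = 0.0562). With 3 embryos a group, standard errors of 0.11 to 0.55 for changes, and of up to 0.604 for differences between the sets, limit what can be seen for these genes.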

Other observations

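The 6 MEF libraries, 3 Mlkl-/- and 3 D387A Cflar-/- Mlkl-/-, hold the same genes in a cell without epithelium, and their levels are on reads on genes and not on the scale of the intestine libraries. Anxa1 was at 467 to 581 RPKM, Ly6a at 112 to 193 RPKM and Anxa3 at 83.8 to 119 RPKM. Clu was at 11.1 to 23.5 RPKM, Msln at 6.59 to 13.6 RPKM, Ereg at 2.91 to 4.78 RPKM and Krt7 at 2.18 to 3.48 RPKM. Areg was at 0.15 to 0.454 RPKM, from 4 to 15 reads a library. Ranges of the 2 MEF genotypes did not overlap for Krt7, with 3.39, 3.48 and 3.38 RPKM in Mlkl-/- against 3.25, 2.37 and 2.18 RPKM in D387A Cflar-/- Mlkl-/-. That is 1 of the 8 genes, against 12.4% of 18253 genes with at least 15 reads over the MEF libraries. The ranges overlapped for the other 7 genes, among them Ly6a, with 134.3, 188.98 and 117.4 RPKM in Mlkl-/- and 112.1, 155.4 and 192.95 RPKM in D387A Cflar-/- Mlkl-/-, and Ereg, with 3.16, 4.26 and 4.73 RPKM against 4.78, 2.91 and 4.69 RPKM.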
